A study of Rattus norvegicus with 6 samples.

Results

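Mitochondrial protein import, assembly, dynamics and mitophagy were examined in aged rat hippocampus following sevoflurane anesthesia, with 55 genes listed by name. A gene was represented by a probe set, the group of array probes that together measure a transcript, whose annotation gave that gene symbol alone, and where several probe sets did so the one with the highest mean over the 6 arrays was used. Of the 55 genes, 53 were measured in this way out of 22093 genes in all, 34 of the 36 for import and assembly and all 19 for dynamics and mitophagy. Surf1, an assembly factor of cytochrome c oxidase, shared its probe sets with Surf4 and Sco2 had no probe set under its own symbol alone in the annotation used, so neither was analysed here. Male Sprague-Dawley rats, 18 months old, breathed for 4 h either 100% oxygen carrying sevoflurane at 2.5% (3 rats) or 100% oxygen alone (3 rats, control), and both groups were killed 3 h after exposure ended. Hippocampal RNA of each rat was hybridised to 1 Clariom D Pico array, a whole transcriptome array with 1 colour, and all values below are the normalized expression on the log2 scale that the authors deposited. A difference of 1 on this scale is a doubling. Levels of different probe sets cannot be set against each other, so each gene is compared only with itself between arrays.

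Nearly all mitochondrial proteins are made in the cytosol and enter through the translocase of the outer membrane (TOM complex), after which the translocases of the inner membrane (TIM complexes) and small chaperones sort them to the inner membrane or the matrix. Chaperonins then fold them, and dedicated factors build the respiratory complexes. The mitochondrial network is shaped by fusion and fission, damaged mitochondria are removed by mitophagy, and the transcription regulators PGC-1, NRF1, GABP and TFAM control how many mitochondria a cell makes. Neurons depend on these processes because their synapses draw much of their energy from oxidative phosphorylation.

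In bulk tissue such as this, fewer cells of a type and less RNA per cell cannot be told apart. All 53 genes examined here exceeded the median background control on every one of the 6 arrays, as did 92.3% of all genes. The 10 measured markers of hippocampal pyramidal and granule cells did so too, but so did all 21 markers of thalamus and habenula, so this level cannot tell the hippocampus from its neighbours. The groups differed in other cell markers. Of the markers of thalamus and habenula, which lie next to the hippocampus, 8 of 21 were higher and 0 were lower in the sevoflurane group (limma, unadjusted p under 0.05). Their summed level, here the sum of the log2 values of the markers on an array, was 141.9 to 144.3 in controls and 145.8 to 158.7 after sevoflurane. Of 9 endothelial markers 2 were lower, Itm2a and Slco1c1, with a summed level of 67.6 to 68.2 in controls and 65.3 to 66.3 after sevoflurane. Of 5 red cell markers 2 were lower, Hba-a3 and Hbb-bs, with a summed level of 38.3 to 39.6 in controls and 37.4 to 38.2 after sevoflurane. Of 8 astrocyte markers 1 was higher, of 7 oligodendrocyte markers 1 was higher and 1 lower, and of 8 choroid plexus markers 1 was higher. Microglia, neuron and pyramidal and granule cell markers had 0 in either direction. Of all genes 1.1% were higher and 0.222% lower at this threshold. Microglia markers had a mean 0.72 above the control mean on sevoflurane replicate 3, against -0.04 and 0.05 on sevoflurane replicates 1 and 2. The part of these differences in the results below was not tested. Sevoflurane replicate 1 was the array least like the rest, with a standard deviation across probe sets of 1.85 against 1.93 to 2.03, so values are also given without it for the genes in which it was far from the rest of its group.

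After sevoflurane anesthesia the genes of mitochondrial import, assembly, dynamics and mitophagy were nearly at the level of the control group. Timm8a1, a small chaperone of the intermembrane space, was higher by 0.28 on the log2 scale and was the only one of the 53 genes with an unadjusted p under 0.05 from limma, and 0 were lower. This is 1.89% of the genes examined. Of all genes taken with 1 probe set each, 1.32% were under the same threshold (1.1% higher and 0.222% lower), as were 1.61% of all 68842 probe sets tested. After Benjamini-Hochberg adjustment over all probe sets 0 of the 53 genes passed from limma, with a smallest adjusted p of 0.99996, as did 0 of all probe sets. Fold changes (log2) ranged from -0.12 for Bnip3l to 0.28 for Timm8a1, with a median of 0.03, against a median of 0.02 over all genes. The median was 0.03 for import and assembly and 0.04 for dynamics and mitophagy.

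These small differences came with errors that were narrow against a change of 1.5-fold but mostly wide against the differences themselves. The standard error of the log2 fold change had a median of 0.113 over the 53 genes and lay between 0.0982 and 0.27. For 52 of the 53 genes (98.1%) the 95% interval of the fold change lay within 1.5-fold either way, as it did for 94.0% of all genes. The exception was Cox11, with an interval from -0.64 to 0.60 on the log2 scale. With 3 arrays a group an exact permutation test of a single gene cannot go below 0.1.

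**Figure D1:**
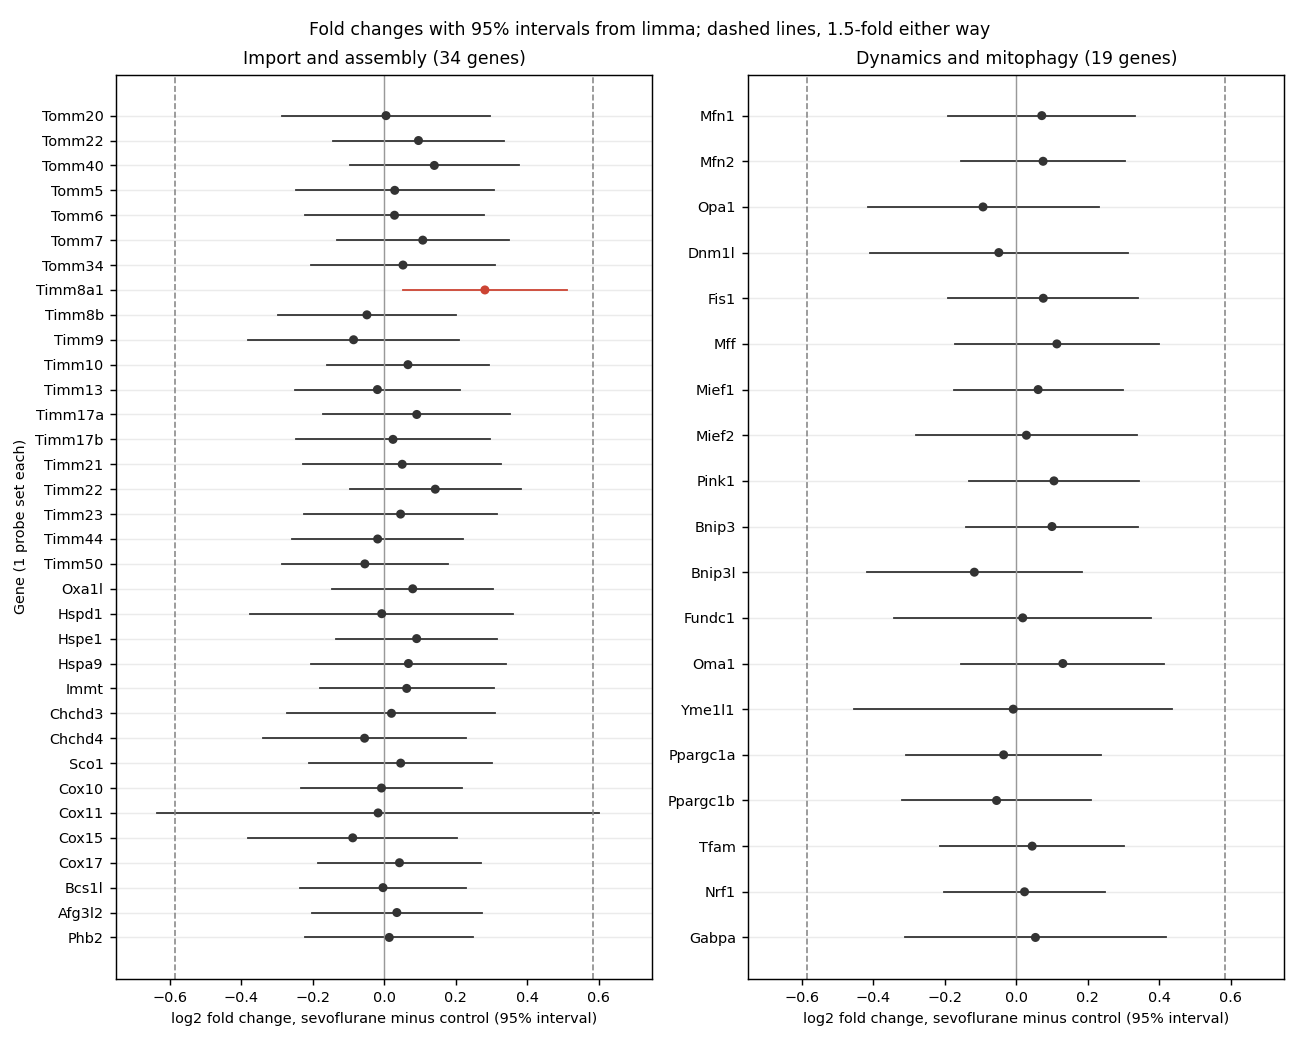
log2 fold change of each of the 53 genes, sevoflurane minus control, on the horizontal axis, with its 95% interval from limma as a line; the dashed lines mark 1.5-fold either way and red marks an unadjusted p under 0.05. Timm8a1 is the single gene in red, and of the 53 intervals that of Cox11 alone crosses a dashed line.

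The TOM complex is the entry gate, with Tomm40 as its channel, Tomm20 and Tomm22 as receptors for precursor proteins, and the small subunits Tomm5, Tomm6 and Tomm7 that hold it together. Tomm34, a cytosolic cochaperone, delivers precursors to it. The log2 fold changes of these 7 genes ranged from 0.0046 for Tomm20 to 0.14 for Tomm40, and 0 had an unadjusted p under 0.05 from limma. All 7 had a positive sign in the deposited values, 6 after centring each array on its median, and 4 to 7 with 1 array left out, so the common sign depended on single arrays. Tomm40 was at 9.08, 9.22 and 9.13 on control replicates 1 to 3 and at 9.26, 9.34 and 9.25 on sevoflurane replicates 1 to 3. Its 3 sevoflurane arrays were all above its 3 control arrays, although by little, and its log2 fold change of 0.14 (standard error 0.103) had an unadjusted p of 0.211 from limma. Tomm20 was at 8.87, 8.75 and 8.74 in controls and at 8.57, 8.87 and 8.93 after sevoflurane, where sevoflurane replicate 1 was the lowest of the 6 arrays, and its log2 fold change was 0.11 without that array.

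The small TIM chaperones carry hydrophobic proteins across the intermembrane space in 2 kinds of complex, one of Timm9 with Timm10 and one of Timm8a1 with Timm13. In humans, loss of the TIMM8A gene causes a syndrome of deafness and dystonia. Timm8a1 was at 6.86, 6.89 and 6.84 on control replicates 1 to 3 and at 7.08, 7.14 and 7.20 on sevoflurane replicates 1 to 3. The groups did not overlap, the control arrays were close to each other, and every sevoflurane array was higher than the control mean of 6.86 ± 0.02 (SD, n = 3). The log2 fold change of 0.28 (standard error 0.101) is 1.22-fold with a 95% interval of 1.04-fold to 1.43-fold, and the unadjusted p from limma was 0.0223. That p was the lowest of the 53 genes but did not hold without some arrays: it was 0.0598, 0.0553 and 0.0808 without control replicates 1, 2 and 3, 0.0639 and 0.0666 without sevoflurane replicates 2 and 3, and 0.00933 without sevoflurane replicate 1. The log2 fold change itself stayed between 0.25 and 0.31 in these fits. The thalamus and habenula markers had means 0.39, 0.74 and 0.13 above their control mean on sevoflurane replicates 1, 2 and 3, arrays on which Timm8a1 was also higher. Whether these markers bear on Timm8a1 was not tested.

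Timm8a1 was named alone by 3 probe sets, and their values disagreed in part. The one used here has an identifier that begins with chromosome X, where RefSeq places the gene. For 98.7% of the probe sets compared, the chromosome in the identifier was that of the gene in RefSeq. Another, with an identifier for chromosome 7, was at 6.09, 5.75 and 5.81 in controls and at 6.13, 5.89 and 5.83 after sevoflurane, which overlapped (log2 fold change 0.07, unadjusted p = 0.644 from limma). The remaining one, with an identifier for chromosome 8, was at 4.10, 4.06 and 3.98 in controls and at 4.28, 4.26 and 4.42 after sevoflurane, which did not overlap (log2 fold change 0.28, unadjusted p = 0.0294 from limma). Its annotation held no gene ID, and its level was near the background, as the background control medians of the arrays were 3.46 to 3.96. The mean of the 3 probe sets gave a log2 fold change of 0.21 with an unadjusted p of 0.0762 from limma. Timm8a2, a close relative with a probe set of its own, had a log2 fold change of -0.15 (unadjusted p = 0.287 from limma). Its level was as low, between 4.07 and 4.47 on the 6 arrays. Transcripts of near-identical copies could share probes, so the value of Timm8a1 is uncertain to that extent.

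The other small TIM chaperones did not pass the test. Timm13 was at 7.06, 7.13 and 7.15 in controls and at 7.15, 7.08 and 7.06 after sevoflurane, a log2 fold change of -0.02 (95% interval -0.25 to 0.21). Timm8b, a relative of Timm8a1, was at 6.84, 6.96 and 6.93 in controls and at 6.85, 6.77 and 6.98 after sevoflurane. Timm9 was at 6.68, 6.46 and 6.50 in controls and at 6.26, 6.55 and 6.57 after sevoflurane, with its lowest value on sevoflurane replicate 1, and leaving that array out moved its log2 fold change from -0.09 to 0.01. In each of these genes the groups overlapped. Timm10 was at 6.00, 6.04 and 6.08 in controls and at 6.14, 6.11 and 6.07 after sevoflurane, and its groups also overlapped. The log2 fold changes of these 4 genes lay between -0.09 and 0.07 with unadjusted p of 0.521 to 0.850 from limma. Whether the fold change of Timm8a1 differs from theirs was not tested.

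**Figure D2:**
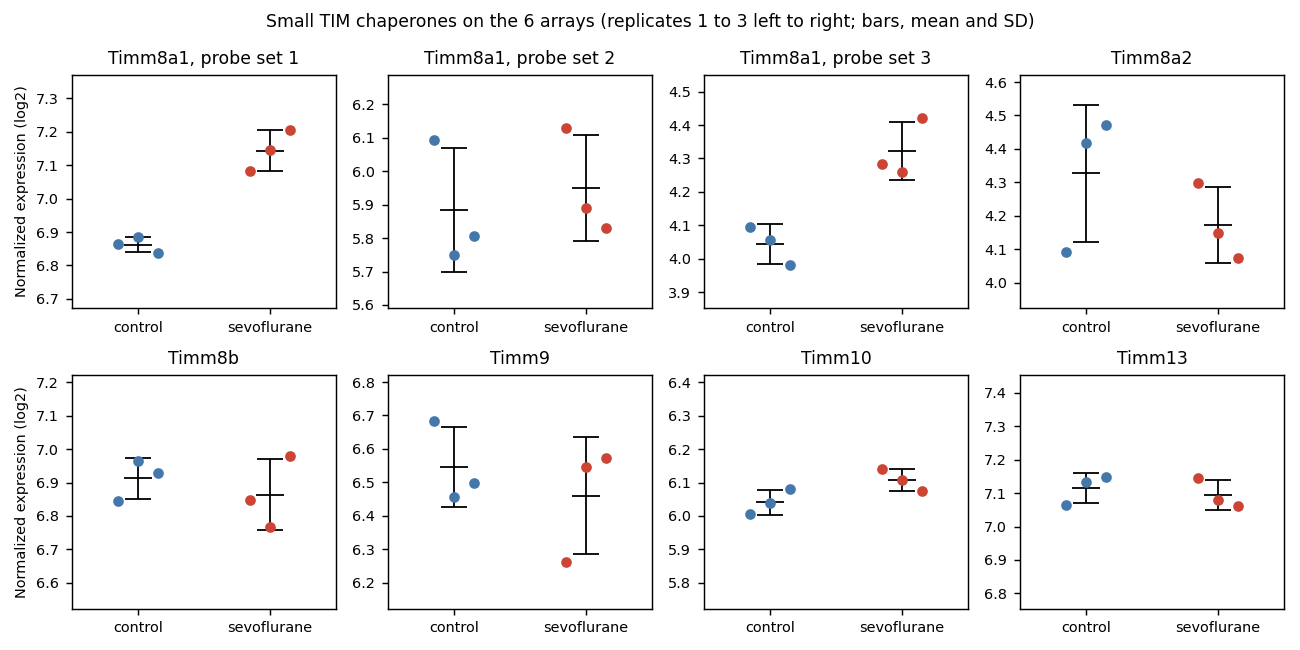
Normalized expression (log2) on the 6 arrays for the 3 probe sets named Timm8a1, in order of level, for Timm8a2 and for the other small TIM chaperones; points are replicates 1 to 3 from left to right, bars are mean and SD, and each panel spans 0.7 on its own axis. The groups are apart in the Timm8a1 probe sets of the highest and the lowest level and overlap in the other 6 panels.

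The promoter of Timm8a1 is shown because this was the single gene past the threshold. The window runs from 250 bases before to 50 bases after the gene's start in RefSeq, build GRCr8, chrX:102015395-102015694 on the minus strand, and capitals mark the E-box CACGTG, which reads the same on both strands. Timm8a1: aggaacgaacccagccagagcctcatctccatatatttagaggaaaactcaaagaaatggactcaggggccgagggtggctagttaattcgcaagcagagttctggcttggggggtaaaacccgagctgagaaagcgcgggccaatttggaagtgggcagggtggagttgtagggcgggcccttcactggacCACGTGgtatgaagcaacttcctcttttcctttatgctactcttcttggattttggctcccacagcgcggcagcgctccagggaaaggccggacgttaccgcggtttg

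The inner membrane translocases sort proteins further. Timm23 with Timm17a, Timm17b, Timm21 and Timm50 forms the presequence translocase, Timm44 ties it to the import motor, Timm22 inserts carrier proteins, and Oxa1l inserts proteins from the matrix side, among them subunits made inside mitochondria. Of these 8 genes 0 had an unadjusted p under 0.05 from limma, and their log2 fold changes lay between -0.05 and 0.14. The log2 fold change of Timm21 was 0.05, and 0.15 without sevoflurane replicate 1. Timm22 was at 6.45, 6.54 and 6.63 in controls and at 6.71, 6.71 and 6.64 after sevoflurane, without overlap but with hardly any gap between the groups. Its log2 fold change was 0.14 (standard error 0.105, unadjusted p = 0.210 from limma).

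Oxa1l is a gene that the study itself named from these arrays, so its direction is not independent evidence. It was at 8.71, 8.69 and 8.68 on control replicates 1 to 3 and at 8.76, 8.75 and 8.81 on sevoflurane replicates 1 to 3. The groups did not overlap and both were tight, 8.69 ± 0.02 (SD, n = 3) in controls and 8.77 ± 0.03 (SD, n = 3) after sevoflurane. The difference is 1.06-fold, a log2 fold change of 0.08 with a 95% interval of -0.15 to 0.30. Limma, which pools the spread over all probe sets, gave an unadjusted p of 0.442, while the methods' one-way analysis of variance, which takes the spread of this gene alone, gave 0.0182, and an exact permutation test gave 0.1, the smallest it can give. The same small difference was thus on either side of the threshold depending on the test. By the analysis of variance 4 of the 34 import and assembly genes had an unadjusted p under 0.05, Timm8a1, Tomm40, Oxa1l and Hspe1. All 4 had a higher level after sevoflurane. Of all genes 3.14% were under this threshold in either direction, and 2.49% were under it and higher. After Benjamini-Hochberg adjustment 0 of the 4 passed.

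The chaperonin Hspd1 and its lid Hspe1 fold proteins in the matrix, and Hspa9 is the ATPase of the import motor that pulls proteins in. Hspd1 and Hspe1 lie head to head in the genome. Hspe1 was at 9.16, 9.10 and 9.15 in controls and at 9.21, 9.27 and 9.21 after sevoflurane, without overlap, a log2 fold change of 0.09 (standard error 0.0989, unadjusted p = 0.387 from limma). Hspd1 was at 8.81, 8.55 and 8.62 in controls and at 8.32, 8.82 and 8.82 after sevoflurane. Its sevoflurane replicate 1 was the lowest of the 6 arrays, its other sevoflurane arrays were near the highest control array, and its log2 fold change was -0.0075 (standard error 0.161), and 0.16 without sevoflurane replicate 1 (unadjusted p = 0.181 from limma). So on sevoflurane replicate 1 this pair of neighbours went apart, with Hspe1 0.03 and Hspd1 0.51 below the mean of sevoflurane replicates 2 and 3. Hspa9 had a log2 fold change of 0.07.

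The windows of 300 bases around the starts of Hspd1 and Hspe1 share 211 bases, and that of Hspe1, chr9:64084077-64084376 on the plus strand, is shown for this reason. Capitals mark the GABP motif CCGGAAG, which was found on both strands of the shared stretch and overlaps its own reverse complement there. The window of Oxa1l, chr15:31783475-31783774 on the plus strand, is shown as that of the gene named by the study. There the capitals mark an NRF1 motif (GCGC, then any base, then TGCGC, on either strand), followed by a YY1 motif, AAGATGGCG.
Hspe1: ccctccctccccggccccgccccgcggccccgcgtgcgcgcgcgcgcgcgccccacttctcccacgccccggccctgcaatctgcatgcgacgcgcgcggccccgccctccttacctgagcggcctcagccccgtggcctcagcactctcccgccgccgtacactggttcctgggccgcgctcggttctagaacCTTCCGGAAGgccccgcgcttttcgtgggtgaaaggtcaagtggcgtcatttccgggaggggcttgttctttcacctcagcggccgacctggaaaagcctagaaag
Oxa1l: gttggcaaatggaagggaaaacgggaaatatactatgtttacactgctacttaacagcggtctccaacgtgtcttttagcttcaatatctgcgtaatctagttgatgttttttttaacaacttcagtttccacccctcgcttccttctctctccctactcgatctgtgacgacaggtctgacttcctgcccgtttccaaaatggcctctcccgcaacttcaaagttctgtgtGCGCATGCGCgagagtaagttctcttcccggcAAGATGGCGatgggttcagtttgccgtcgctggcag

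Motifs of the regulators of mitochondrial biogenesis were common in these promoters. RefSeq held a window for 48 of the 53 genes, and both strands were searched. The NRF1 motif was in 10 of them (20.8%), against 4.7% of all 27453 windows and 6.08% of those of protein-coding genes. The GABP motif was in 17 (35.4%), against 9.21% of all windows and 11.2% of those of protein-coding genes. Hspd1 and Hspe1 are both among the 17 through the stretch that their windows share. The YY1 motif was in 5 (10.4%), against 1.93% of all windows and 2.29% of the protein-coding ones. The E-box CACGTG was in 7 (14.6%), against 6.65% and 7.26% in the same order. The ERR motif TCAAGGTCA was in the window of Timm8b alone, against 0.412% and 0.353%. The GC content of the windows had a median of 58.8% for these genes and 52.3% for all. The median log2 fold change was 0.06 for the 10 genes with an NRF1 motif and 0.03 for the others, and 0.04 and 0.03 with and without a GABP motif. For the YY1 motif it was -0.0082 with and 0.03 without, and for the E-box 0.07 with and 0.03 without. These differences were not tested. A match describes the letters and does not show that a factor binds there.

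Of 9 genes that shape cristae, oxidise imported proteins and build the respiratory complexes, 0 had an unadjusted p under 0.05 from limma. Immt and Chchd3 belong to the MICOS complex at the base of cristae and had log2 fold changes of 0.06 and 0.02. That of Chchd3 was 0.13 without sevoflurane replicate 1. Chchd4, the oxidoreductase that traps cysteine-rich proteins in the intermembrane space, was at 6.23, 6.31 and 6.51 in controls and at 6.41, 6.16 and 6.32 after sevoflurane, a log2 fold change of -0.06 with overlapping groups. Cox15, which makes heme a for cytochrome c oxidase, was at 8.05, 7.88 and 7.89 in controls and at 7.65, 7.89 and 8.01 after sevoflurane (log2 fold change -0.09, unadjusted p = 0.508 from limma, and 0.01 without sevoflurane replicate 1). The copper chaperones Cox17, Sco1 and Cox11 had log2 fold changes of 0.04, 0.05 and -0.02. Cox11 had the widest spread of the 53 genes, at 7.76, 7.35 and 7.44 in controls and at 6.82, 7.77 and 7.91 after sevoflurane. Sevoflurane replicate 1 was 1.02 below the mean of the other sevoflurane arrays, while those were at or above the highest control. Without it the log2 fold change of Cox11 was 0.32 (unadjusted p = 0.0485 from limma). Cox10 and Bcs1l, which serve heme synthesis and complex III, were at -0.01 and -0.0038, and the protease Afg3l2 and the prohibitin Phb2 at 0.03 and 0.01.

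Among the 19 genes of dynamics, mitophagy and biogenesis, 0 had an unadjusted p under 0.05 from limma, and 0 did by the methods' one-way analysis of variance or by limma once its spread was robust and followed intensity. With array weights, which gave sevoflurane replicate 1 a weight of 0.174, Gabpa alone was under 0.05 (log2 fold change 0.25, unadjusted p = 0.0331, adjusted p = 0.328 from limma), in a fit in which 10.1% of all genes were. The fusion genes Mfn1 and Mfn2 of the outer membrane each had a log2 fold change of 0.07. Opa1, which fuses inner membranes, was at 8.89, 8.75 and 8.78 in controls and at 8.43, 8.80 and 8.90 after sevoflurane. Its difference of -0.09 (standard error 0.141) rested on sevoflurane replicate 1, without which it was 0.05.

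Fission is carried out by Dnm1l, a dynamin that Mff, Fis1, Mief1 and Mief2 recruit to the outer membrane. Dnm1l was at 9.87, 9.67 and 9.63 in controls and at 9.34, 9.82 and 9.85 after sevoflurane, again with its lowest value on sevoflurane replicate 1 (log2 fold change -0.05, standard error 0.158), and the log2 fold change was 0.12 without it. Mff was at 9.31, 9.14 and 9.47 in controls and at 9.31, 9.43 and 9.53 after sevoflurane. The spread among its controls was wider than its log2 fold change of 0.11 (unadjusted p = 0.391 from limma). Fis1, Mief1 and Mief2 had log2 fold changes of 0.08, 0.06 and 0.03. That of Mief2 was -0.10 without sevoflurane replicate 1.

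Mitophagy genes did not pass the test either. Pink1, the kinase that marks damaged mitochondria, was at 9.04, 9.21 and 9.17 in controls and at 9.28, 9.21 and 9.25 after sevoflurane. The groups did not overlap, but control replicate 2 and sevoflurane replicate 2 were almost equal, and the log2 fold change was 0.11 (standard error 0.104, unadjusted p = 0.341 from limma). Bnip3 and Bnip3l are receptors that hypoxia-inducible factors are known to induce. Bnip3 was at 8.72, 8.82 and 8.85 in controls and at 8.82, 8.89 and 8.98 after sevoflurane (log2 fold change 0.10, 95% interval -0.14 to 0.34). Bnip3l was at 8.57, 8.48 and 8.52 in controls and at 8.16, 8.51 and 8.55 after sevoflurane. Its value of -0.12 (95% interval -0.42 to 0.18) was the lowest of the 53. In the deposited values it rested on sevoflurane replicate 1 and was 0.0062 without that array. After quantile normalization it was -0.11, with all 3 sevoflurane arrays below the 3 control arrays. Fundc1, another receptor, was at 7.22, 7.10 and 7.12 in controls and at 6.82, 7.28 and 7.39 after sevoflurane. Its log2 fold change was 0.02, and 0.19 without sevoflurane replicate 1 (unadjusted p = 0.0875 from limma).

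Oma1 and Yme1l1 are inner membrane proteases that cleave Opa1. Oma1 was at 6.29, 6.14 and 6.50 in controls and at 6.52, 6.37 and 6.43 after sevoflurane (log2 fold change 0.13, unadjusted p = 0.325 from limma), with overlapping groups. Yme1l1 had a log2 fold change of -0.01 with a standard error of 0.195, the largest of the 19, and 0.21 without sevoflurane replicate 1 (unadjusted p = 0.135 from limma). The coactivators Ppargc1a and Ppargc1b were at -0.04 and -0.06. Ppargc1b was at 7.27, 7.53 and 7.39 in controls and at 7.42, 7.33 and 7.27 after sevoflurane. Tfam, which packages mitochondrial DNA, Nrf1 and Gabpa had log2 fold changes of 0.04, 0.02 and 0.05. Without sevoflurane replicate 1 that of Gabpa was 0.19. The 95% interval of Nrf1, -0.20 to 0.25, was the narrowest of the 5 regulators.

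**Figure D3:**
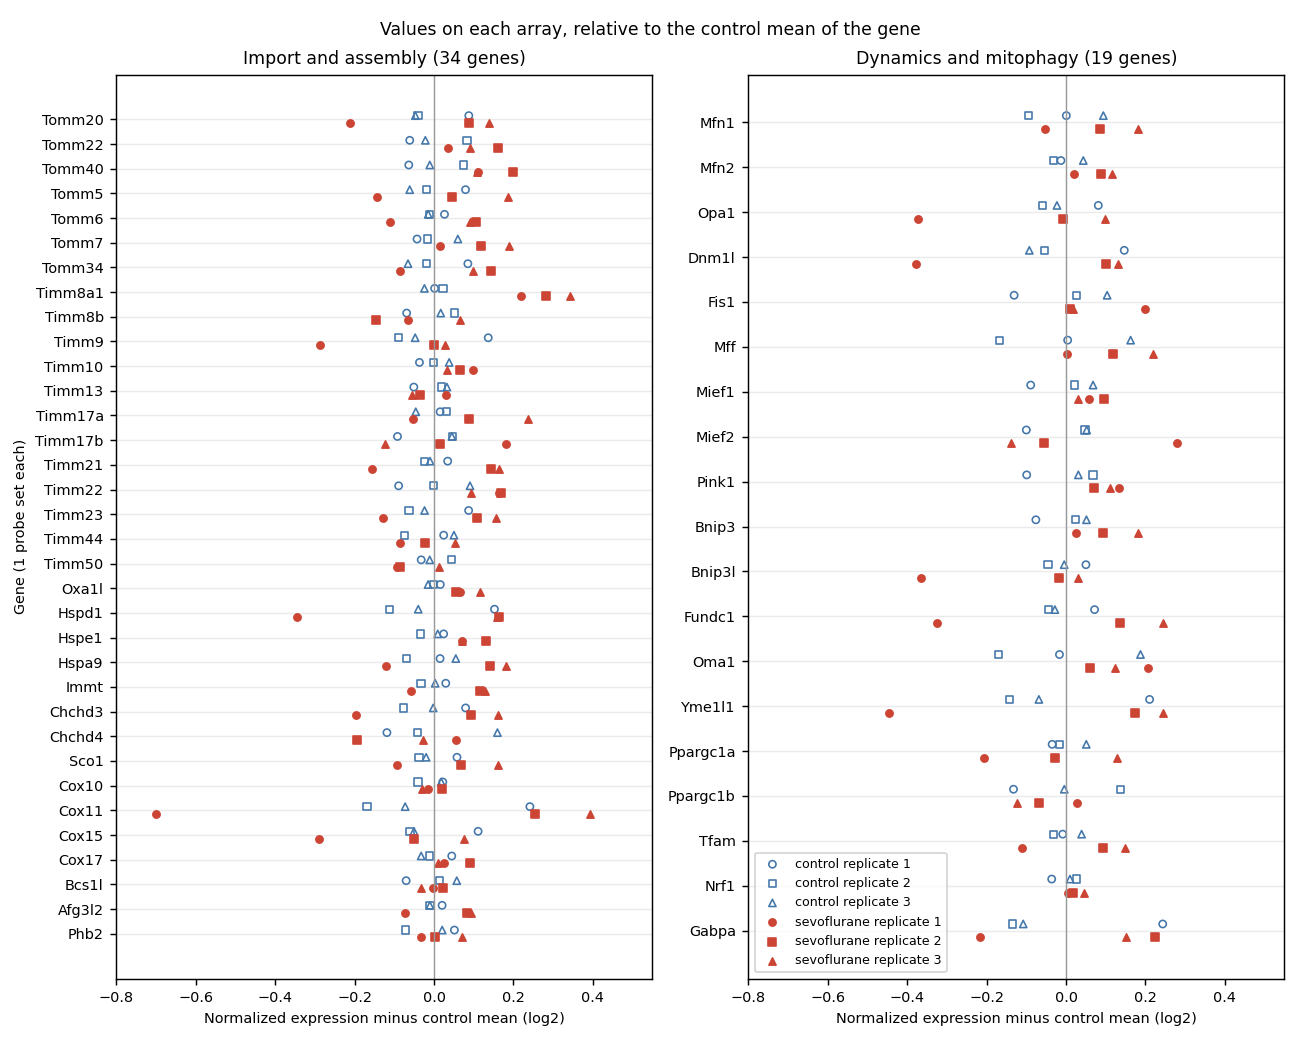
Normalized expression (log2) of each gene on each array minus its control mean, for 34 import and assembly genes and 19 dynamics and mitophagy genes; open blue marks are control arrays and filled red marks sevoflurane arrays, with circles, squares and triangles for replicates 1, 2 and 3. The red circles of sevoflurane replicate 1 lie furthest to the left in 26 of the 53 genes, and Timm8a1 has the widest gap between red and blue marks.

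Without any limit on p, the groups were free of overlap in 6 of the 53 genes (11.3%), Tomm40, Timm8a1, Timm22, Oxa1l, Hspe1 and Pink1, each of them higher after sevoflurane. This was the case in 6.27% of all genes and 5.47% of all probe sets, and 4.93% of all genes were higher without overlap. The count depended on the scaling. After quantile normalization 5 genes had no overlap, of which Tomm7, Timm8a1, Timm22 and Immt were higher and Bnip3l was lower, against 8.65% of all genes, and after centring each array on its median there were 0, against 5.4%, so of the 6 only Timm8a1 and Timm22 were without overlap after quantile normalization.

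Single arrays stood off from the rest of their group in many of these genes. Sevoflurane replicate 1 was the lowest of the 6 arrays in 26 of the 53 genes (49.1%), against 24.5% of all genes, and sevoflurane replicate 3 the highest in 27 (50.9%), against 21.4%. How often sevoflurane replicate 1 was lowest depended on the scaling, with 19 genes after quantile normalization and 44 after centring. In 13 genes (24.5%, against 13.0% of all genes) sevoflurane replicate 1 lay over 0.3 below the mean of sevoflurane replicates 2 and 3. In all 13 control replicate 1 lay above the mean of control replicates 2 and 3, as it did in 2570 of the 2882 such genes among all genes. The size of the deviation of sevoflurane replicate 1 was 1.02 in Cox11, 0.66 in Yme1l1, 0.52 in Fundc1, 0.51 in Hspd1 and 0.49 in Dnm1l. In 6 of the 53 genes (11.3%) that array was over 0.1 above, led by Mief2 at 0.38, against 48.3% of all genes. In all 6 control replicate 1 lay below the mean of the other controls, as it did in 9609 of the 10678 such genes among all genes. Opposite signs of these 2 deviations were found in 42 of the 53 genes (79.2%), and in 78.9% of all genes. The deviation of sevoflurane replicate 1 itself ran the other way in these genes than over all genes. Its median was -0.14 for the 53 and 0.08 for all. That array had the smallest standard deviation across probe sets, and whether the level of a gene bears on its deviation was not tested. Within groups the genes examined varied less than others, with a median SD of 0.07 in controls and 0.11 after sevoflurane, against 0.10 and 0.17 over all genes.

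**Figure D4:**
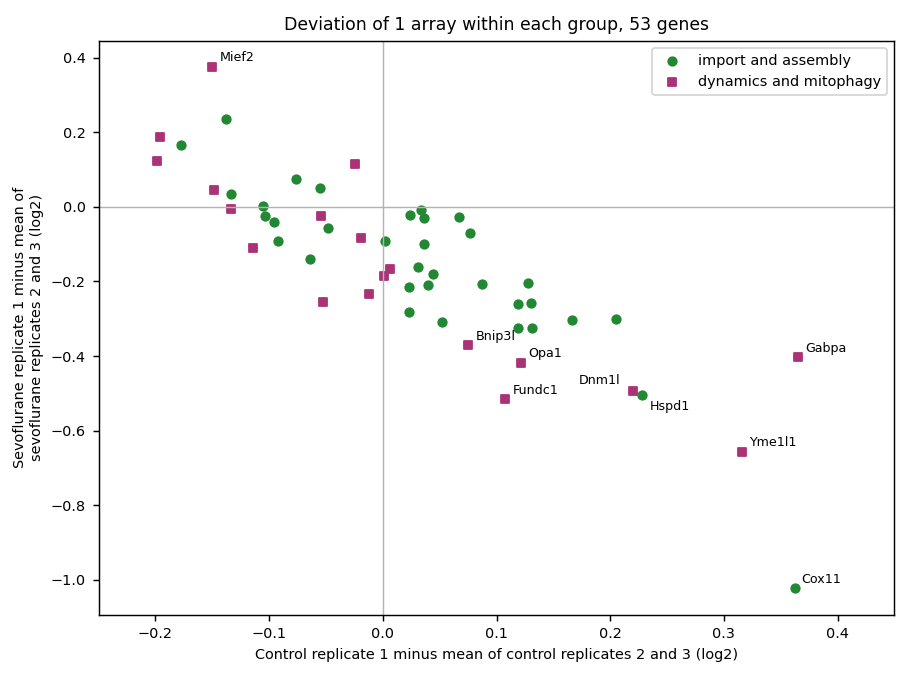
Sevoflurane replicate 1 minus the mean of sevoflurane replicates 2 and 3 (vertical) against control replicate 1 minus the mean of control replicates 2 and 3 (horizontal), both log2, 1 point for each of the 53 genes. Cox11 and Yme1l1 lie lowest, at -1.02 and -0.66, and Mief2 highest, at 0.38.

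The median shift of the genes was not uniform within the sevoflurane group. The median deviation of the 53 genes from their control means was -0.05 on sevoflurane replicate 1 and 0.09 and 0.11 on sevoflurane replicates 2 and 3, while the control arrays were at 0.02, -0.02 and -0.0021. In the deposited values the sevoflurane arrays thus lay on both sides of the control arrays. With all arrays 36 of the 53 log2 fold changes were positive (67.9%), against 62.5% of all genes. Without sevoflurane replicate 1 it was 44 (83%), with a median of 0.10, against 49.3% and a median of -0.0027 for all genes, and 2 genes, Timm8a1 and Cox11, had an unadjusted p under 0.05 from limma, where 4.61% of all genes did. Without sevoflurane replicate 3, 17 of the 34 import and assembly genes and 11 of the 19 dynamics and mitophagy genes were positive, with medians of 0.00035 and 0.01. After quantile normalization the median deviations of the 53 genes on the sevoflurane arrays were 0.0077, 0.06 and 0.05, all above the 0.0033, 0.0037 and 0.00099 of the controls, with sevoflurane replicate 1 only just so. After centring they were -0.22, 0.14 and 0.19, again on both sides of the controls at 0.08, -0.08 and -0.0068.

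Other genes of the same processes were as close to the control level. Of 132 measured out of 138 listed, 0 had an unadjusted p under 0.05 from limma in either direction, where 1.32% of all genes did, and their median log2 fold change was 0.02, within a range of -0.18 to 0.20. They comprised 25 further import genes, 53 of assembly and quality control, 32 of dynamics and mitophagy and 22 of biogenesis, with medians of 0.02, 0.03, 0.04 and 0.0055. Without sevoflurane replicate 1 these medians were 0.04, 0.08, 0.09 and 0.03, against -0.0027 for all genes. A positive median without that array was thus not particular to the 53 genes. Timm29, a subunit of the carrier translocase that Timm22 forms, had the highest log2 fold change of them. It was at 6.52, 6.66 and 6.55 in controls and at 6.85, 6.77 and 6.70 after sevoflurane, without overlap (log2 fold change 0.20, standard error 0.106, unadjusted p = 0.10 from limma). In all 11 of the 132 genes (8.33%) had no overlap between groups, against 6.27% of all genes. Of these, 8 were higher (6.06%, against 4.93% of all genes), among them the protease Lonp1 at a log2 fold change of 0.17, and 3 were lower, the assembly factors Uqcc2, Ndufaf2 and Cox19 at -0.11, -0.10 and -0.05. Timm29, Lonp1, Uqcc2, Ndufaf2 and Cox19 were singled out after their values had been seen.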

How the data were processed

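Hippocampal RNA of 3 sevoflurane and 3 control rats was measured on 6 Clariom D Pico arrays. The values were deposited by the authors as normalized expression on the log2 scale. The submitters' notes list Affymetrix Expression Console 1.4.1 along with RMA and MAS5 without saying what each did. If arrays were brought to one distribution, a change common to most transcripts could not be seen. Of 70580 probe sets, 1738 controls were left out and 68842 tested. Symbols came from the platform annotation (23446 probe sets with 1 symbol), and promoters from RefSeq (GRCr8) by gene ID or symbol.

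The two-sided test was that of limma 3.58.1 (lmFit, then eBayes, R 4.3.3), fitted over all probe sets with Benjamini-Hochberg adjustment, and an exact permutation test was run for single genes. The script was tested on simulated data. Calls are at an unadjusted p under 0.05. Alternatives were the methods' one-way ANOVA, an intensity trend with robust spread, array weights, quantile normalization, centring, a filter on dim probe sets (above the background control median on at least 3 arrays), a replicate block, the mean of probe sets and each array left out. Members and lists were chosen with earlier results of these data known. Values on all arrays are given for genes with an unadjusted p under 0.05 or no overlap, the 3 largest differences each way in each of the 2 groups, Oxa1l and the small TIM chaperones. Those for Tomm20, Cox11, Hspd1, Dnm1l, Bnip3, Fundc1 and Timm29 were added after the values had been seen. The authors' quantitative PCR and functional assays were not analysed here. The arrays come from separate rats, 1 for each array, and their number limits the precision of every value.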

Additional observations from a re-analysis of the deposited data

How the results depend on the processing

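The count of import and assembly genes with an unadjusted p under 0.05 was 1 of 34 by limma and 4 by the methods' one-way ANOVA. It was 3 with array weights (Timm8a1, Tomm40 and, lower, Chchd4). It was 0 with centring on the median, with the mean of probe sets and with the replicate block. With 1 array left out it was between 0 and 2, being 2 without sevoflurane replicate 1 and 0 without any other single array. Of all genes 1.32% were under the threshold by limma and 3.14% by the ANOVA. With array weights 10.1% of all genes were, and without sevoflurane replicate 1 4.61%. For dynamics and mitophagy genes the count of 0 became 1 with array weights and was 0 with each array left out and in the other alternatives. The medians of the log2 fold change, 0.03 and 0.04 by limma on all arrays as deposited, were lowest and highest with 1 array left out. They were 0.00035 to 0.11 for import and assembly and 0.01 to 0.09 for dynamics and mitophagy with 1 array left out. The cause of the changed counts was not tested. The median of all probe sets was at 0.0091 in the deposited values, 0.0044 after quantile normalization and 0.00032 after centring.

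The unadjusted p of Timm8a1 was 0.0527 with centring, 0.0762 with the mean of probe sets and 0.0892 with the replicate block. The deviations of same-numbered arrays from their group means correlated at -0.59, -0.29 and 0.03, and those of differently numbered arrays at -0.50 to 0.56. With 3 arrays a group these values cannot tell whether the replicate numbers pair the arrays. With the replicate block both medians kept their values of 0.03 and 0.04, and no further gene passed or failed the threshold. The number of arrays limits what can be detected, and probe sets that share sequence between gene copies cannot be resolved here.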
